A study of Mus musculus with 18 samples.

Results

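The splicing factor and hnRNP genes examined here were 58 of the 21887 RefSeq protein-coding genes of the mouse. The members are defined by symbol, but the set was proposed with earlier results of these data known. It holds all genes whose symbol starts with Hnrnp, Srsf, Snrp, Sf3a or Sf3b, together with Pcbp1, Pcbp2, Ptbp1, U2af1 and U2af2. They fall into 24 hnRNP genes (the Hnrnp genes, Pcbp1, Pcbp2 and Ptbp1), 11 SR genes (Srsf) and 23 genes of the snRNPs and the U2 machinery (Snrp, Sf3a, Sf3b, U2af1 and U2af2). MYC occupancy was mapped by ChIP-seq, the sequencing of DNA pulled down with an antibody, in liver tumours of FVB mice that had been collected at death and frozen. All mice carried LAP-tta and TRE-MYC, a doxycycline-controlled MYC transgene, and formed tumours after doxycycline was taken away. Homo tumours had both Arid1a alleles floxed and Alb-cre, and came from mice about 100 days old. Het tumours had 1 floxed Arid1a allele and Alb-cre, at about 70 days. WT tumours had both alleles floxed but no Cre, at about 55 days. Arid1a, a subunit of SWI/SNF chromatin remodellers, was thus removed in part or in full, and the comparison asks whether MYC occupancy differs with its dose. LAP and Alb-cre act in the hepatocyte lineage, so other cells of a tumour keep their floxed alleles. Age changed together with Arid1a dose in every comparison, and their effects cannot be told apart. Homo and Het both carried Alb-cre and WT did not, so in comparisons with WT the effect of Cre cannot be told apart either.

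Each genotype had 3 MYC libraries, with 1 peak list per library, and 3 input libraries. The labels do not say that the libraries of a genotype came from separate animals, so the spread between them may be technical. In replicate order the lists held 112, 51 and 303 peaks in Homo, 1713, 1869 and 378 in Het, and 92, 1567 and 4291 in WT. Homo replicate 2 and WT replicate 1 stand apart, with 12 and 16 bound genes in all. Depth, estimated from the peak values, ranged from 3.37 to 6.27 input reads per kb and from 7.80 to 15.2 MYC reads per kb. The inputs of all 3 Homo libraries were shallower than those of all 3 WT libraries. Expression was not measured, so the labelled tissue could not be checked by its RNA. Among hepatocyte marker genes, Apoa1 and Fgb had a MYC peak in 1 library each, against 0 of 12 immune, 0 of 12 endothelial and stellate, and 0 of 8 cholangiocyte markers.

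Splicing removes introns from nascent transcripts. The U1 and U2 snRNPs, each an snRNA on a ring of Sm proteins (Snrpb, Snrpd1, Snrpf and others), mark the splice sites, and U2af1 and U2af2 hand the 3′ splice site to U2 with its SF3A and SF3B complexes. SR proteins bind exons and recruit this machinery, whereas hnRNP proteins coat the transcript and often block it. MYC binds DNA with its partner MAX at E-boxes, whose best form is CACGTG, and in human cancer cells it is known to raise PTBP1, HNRNPA1, HNRNPA2B1 and SRSF1.

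A gene was counted as bound in a library when a peak summit lay within 1 kb of either end of its span. By this rule 27 of the 58 genes were bound in at least 1 library, compared with 14.9% of all protein-coding genes. In at least 2 libraries 18 were bound (background 8.03%, the share of all protein-coding genes), in at least 4 libraries 8 (background 3.03%), and in at least 6 libraries 5 (background 0.521%). Those 5 were Pcbp1 and Snrpd1 with 7 libraries, and Srsf7, Hnrnpa1 and Ptbp1 with 6. No splicing gene had a peak at an end in Homo replicate 2 or WT replicate 1, where 3 counts of 58 would be a share of 5.17%. Of the 27 bound genes 9 rested on 1 library, and 8 of these 9 on WT replicate 3, the longest list. Without WT replicate 3, 19 genes were bound in at least 1 library (background 8.65%) and 14 in at least 2 (background 5.14%). With the window narrowed to 250 bp, 12 were bound in at least 1 library, compared with 10.3% of all genes. The background counts every protein-coding gene, expressed or not.

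**Figure D1:**
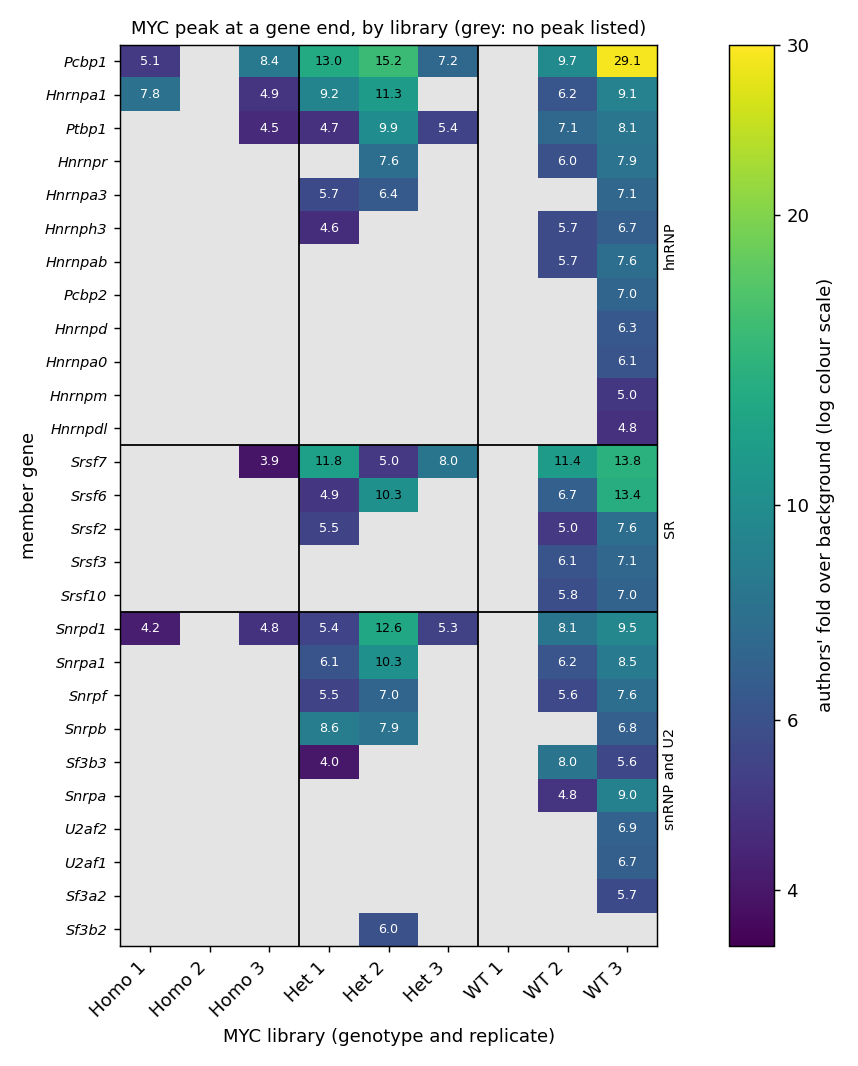
Authors' fold over background (colour, log scale, and printed) of the highest peak at an end of each of the 27 bound genes (rows, by group) in each MYC library (columns, Homo, Het and WT from left to right). Grey cells have no peak listed. Pcbp1 reaches 29.1 in WT replicate 3, and the columns of Homo replicate 2 and WT replicate 1 are empty.

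Promoter sequences, from 250 bases before to 50 bases after a start, were matched from RefSeq (GRCm38.p6, the assembly of mm10) for 51 of the 58 genes, all but Snrpb, Sf3b4, U2af2, Sf3b5, Hnrnpll, Snrpd1 and Hnrnpul2. The letters CACGTG, which read the same on both strands, were in a promoter of 6 of 24 bound splicing genes (Pcbp1, Ptbp1, Hnrnpa3, Snrpa, Hnrnpd and Hnrnpm) and of 2 of 27 unbound ones (Hnrnpf and Hnrnph2). The share was 18.7% of all bound genes, 7.12% of all unbound genes and 8.91% of all genes with a promoter, and 7.15% of all 32851 promoters. With CACGCG counted as well on either strand, it was 13 of 24 bound and 7 of 27 unbound splicing genes, against 45.6% of all bound and 16.3% of all unbound genes. Among the bound splicing genes the share with CACGTG was 25%.

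Of the promoters below, Pcbp1 and Ptbp1 are shown as the most often bound hnRNP genes with CACGTG, and Hnrnpf for the internal start at which 6 libraries had a summit. Hnrnpa3 and Snrpa are shown as genes whose summits fall inside a window that holds CACGTG, and Hnrnpr as one whose window holds summits but not these letters. Hnrnpab, Srsf3 and Pcbp2, which are not shown, also had a summit inside a window without CACGTG. The promoters shown therefore overstate how often a window with a summit holds these letters. Each promoter shown is written 5′ to 3′ in the direction of transcription, with CACGTG in capitals and 250 bases before the start.
Pcbp1 (chr6:86526140-86526439, minus strand): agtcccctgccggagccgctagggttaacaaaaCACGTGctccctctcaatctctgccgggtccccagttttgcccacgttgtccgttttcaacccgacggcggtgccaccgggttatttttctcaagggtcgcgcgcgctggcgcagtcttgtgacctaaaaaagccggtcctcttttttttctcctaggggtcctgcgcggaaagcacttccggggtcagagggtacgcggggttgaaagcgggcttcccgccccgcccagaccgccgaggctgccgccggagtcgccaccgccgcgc
Ptbp1 (chr10:79854182-79854481, plus strand): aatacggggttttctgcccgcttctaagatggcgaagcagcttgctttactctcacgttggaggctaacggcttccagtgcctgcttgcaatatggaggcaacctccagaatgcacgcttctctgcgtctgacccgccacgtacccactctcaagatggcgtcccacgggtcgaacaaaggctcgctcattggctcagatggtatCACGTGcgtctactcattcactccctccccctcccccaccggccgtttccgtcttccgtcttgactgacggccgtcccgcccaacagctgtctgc
Hnrnpf (chr6:117907554-117907853, plus strand): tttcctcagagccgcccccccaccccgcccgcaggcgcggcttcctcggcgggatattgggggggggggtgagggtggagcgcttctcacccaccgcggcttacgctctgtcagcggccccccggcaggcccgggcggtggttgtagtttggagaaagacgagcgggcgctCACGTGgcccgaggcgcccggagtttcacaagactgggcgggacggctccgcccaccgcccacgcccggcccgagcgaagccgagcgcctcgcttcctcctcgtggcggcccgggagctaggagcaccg
Hnrnpa3 (chr2:75659009-75659308, plus strand): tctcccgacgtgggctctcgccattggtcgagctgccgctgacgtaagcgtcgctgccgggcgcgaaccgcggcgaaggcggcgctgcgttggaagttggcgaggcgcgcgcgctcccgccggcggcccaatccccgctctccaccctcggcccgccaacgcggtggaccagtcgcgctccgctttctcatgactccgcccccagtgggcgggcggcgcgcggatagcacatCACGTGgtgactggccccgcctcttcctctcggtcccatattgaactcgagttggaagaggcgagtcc
Snrpa (chr7:27195711-27196010, minus strand): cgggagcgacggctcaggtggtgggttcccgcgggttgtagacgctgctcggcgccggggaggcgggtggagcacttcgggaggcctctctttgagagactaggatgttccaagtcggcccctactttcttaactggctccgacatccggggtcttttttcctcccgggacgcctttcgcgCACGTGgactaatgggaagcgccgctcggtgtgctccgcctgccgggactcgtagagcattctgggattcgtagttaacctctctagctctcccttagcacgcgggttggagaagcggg
Hnrnpr (chr4:136310692-136310991, plus strand): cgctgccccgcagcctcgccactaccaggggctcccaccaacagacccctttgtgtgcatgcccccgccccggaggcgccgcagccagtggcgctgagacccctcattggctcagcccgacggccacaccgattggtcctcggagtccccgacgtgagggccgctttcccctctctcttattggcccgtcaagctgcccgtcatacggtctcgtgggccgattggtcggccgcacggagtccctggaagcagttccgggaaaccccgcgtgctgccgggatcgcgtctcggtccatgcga

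At Pcbp1 the CACGTG lies at position -217 from the start, and the summits of the 7 libraries lay 167 to 303 bp from it, further upstream and outside the window shown. At Ptbp1 it lies at -45, with the 6 summits 297 to 336 bp away, again upstream of the window. At Hnrnpa3 it lies at -18 and the 3 summits lay 83 to 179 bp away. At Snrpa the summit of both WT libraries was at the same base, 52 bp from the CACGTG of the window shown. The sequence beyond the windows was not used here, so these distances do not say which letters lie under a summit outside them.

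Among the hnRNP genes, 12 of 24 were bound in at least 1 library (background 14.9%) and 7 in at least 2 (background 8.03%). Pcbp1 (chromosome 6, 86524480 to 86526189, minus strand, mm10) encodes a poly(C)-binding protein of mRNA stability and splicing. The authors' fold over background at Pcbp1 was 5.06 and 8.36 in Homo replicates 1 and 3, 13.0, 15.2 and 7.19 in the 3 Het libraries, and 9.70 and 29.1 in WT replicates 2 and 3. Its summits lay 381 to 517 bp upstream of the transcription start in all 7 libraries, and the noncoding gene 1600020E01Rik lies at the same peak. By fold within the list, Pcbp1 was number 95 (list of 112 peaks) and 82 (303) in the Homo libraries. Its rank was 75 (1713), 54 (1869) and 159 (378) in the Het libraries, and 237 (1567) and 7 (4291) in the WT libraries. It was thus among the lower peaks of Homo replicate 1, and among the highest of Het replicate 2 and WT replicate 3.

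Hnrnpa1 (chromosome 15, 103239943 to 103246698) encodes a repressor of splice-site use. Its fold was 7.77 and 4.89 in Homo replicates 1 and 3, 9.23 and 11.3 in Het replicates 1 and 2, and 6.24 and 9.08 in WT replicates 2 and 3. Both Het values were above both Homo and both WT values, and Homo and WT overlapped. The WT replicate 2 value is that of a summit upstream of the start, and a second, downstream summit in that library, just beyond the 1 kb limit, had a fold of 7.25. In at least 1 library the summit was also within 1 kb of an end of Cbx5, which encodes a heterochromatin protein, so it cannot be assigned to 1 of the 2 genes.

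Ptbp1 (chromosome 10, 79854432 to 79864435) encodes the polypyrimidine tract-binding protein. Its fold was 4.53 in Homo replicate 3, 4.74, 9.94 and 5.38 in the Het libraries, and 7.15 and 8.12 in WT replicates 2 and 3. The summits lay in a stretch of 39 bp, 339 to 378 bp upstream of the start. The noncoding gene E130317F20Rik lies at the same peak. The single Homo value was the lowest of the 6. Noncoding genes also lie at the peaks of Hnrnpa3, Pcbp2, Srsf3 and Snrpf. Of the 27 bound splicing genes, 18 had another gene at a peak, 12 of them a coding gene.

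The other hnRNP genes bound in more than 1 library had no peak in Homo. Hnrnpa3 had folds of 5.67 and 6.44 in Het replicates 1 and 2 and 7.10 in WT replicate 3. Hnrnpr had 7.62 in Het replicate 2 and 5.96 and 7.91 in WT replicates 2 and 3. Hnrnph3, whose peak is shared with Pbld2, had 4.63 in Het replicate 1 and 5.70 and 6.72 in WT replicates 2 and 3. All 3 were thus found in both Het and WT. Hnrnpab had a peak in WT replicates 2 and 3 and in no Homo or Het library, with folds of 5.73 and 7.64. Pcbp2, Hnrnpd (shared with 4930524J08Rik), Hnrnpa0, Hnrnpm (shared with Marchf2) and Hnrnpdl (shared with Enoph1) had a peak in WT replicate 3 alone, with folds of 7.03, 6.31, 6.10, 4.97 and 4.77.

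Some hnRNP genes that the rule counts as unbound carried MYC inside the gene, over 1 kb from both ends. Hnrnpf, which encodes a G-tract-binding hnRNP of the F/H family, had a summit 15 to 92 bp downstream of an annotated internal start in 6 libraries, 7479 to 7556 bp from the nearer end of its span. The fold there was 6.33 in Homo replicate 3, 6.45, 13.2 and 6.61 in the Het libraries, and 6.87 and 17.2 in WT replicates 2 and 3. Hnrnpf was therefore found in as many libraries as Ptbp1. When starts within 1 kb were counted beside the ends, a choice made after seeing the data, 21 splicing genes were bound in at least 2 libraries (background 8.8%). Hnrnpl, a binder of CA repeats, had a summit 554 to 586 bp downstream of its annotated start in 4 libraries, at folds of 6.14 and 13.1 in Het replicates 1 and 2 and 9.43 and 9.98 in WT replicates 2 and 3. Hnrnpu, a nuclear scaffold protein, had a summit 1222 to 1363 bp downstream of its start in 5 libraries, with folds of 6.64, 8.05 and 5.58 in Het and 9.68 and 10.1 in WT replicates 2 and 3. Hnrnph1 had such a summit in WT replicate 3 only (fold 6.6, 78 bp upstream of an internal start). Hnrnpa2b1 had no peak by either measure, its nearest summit lying 1083 bp outside the gene in WT replicate 3. Hnrnpk, Hnrnpc, Hnrnpul1, Hnrnpul2, Hnrnpll, Hnrnph2 and Hnrnpa1l2-ps2 had their nearest summit in any library at least 15227 bp from an end, the value of Hnrnpc.

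Among the SR genes, 5 of 11 were bound (background 14.9%), all of them in at least 2 libraries (background 8.03%). With the 250 bp window 1 SR gene was bound in at least 2 libraries (background 5%). Srsf7 (chromosome 17, 80200080 to 80207369) had folds of 3.94 in Homo replicate 3, 11.8, 4.99 and 8.04 in the Het libraries, and 11.4 and 13.8 in WT replicates 2 and 3. The Homo value was the lowest of the 6 and rank 294 of 303 in its list. The summits fell within 35 bp of each other, 189 to 224 bp downstream of the start. The peak is shared with Gemin6, which encodes a subunit of the SMN complex that loads Sm proteins onto snRNAs.

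Srsf6 had a peak in 4 libraries, at folds of 4.90 and 10.3 in Het replicates 1 and 2 and 6.74 and 13.4 in WT replicates 2 and 3, with summits 276 to 297 bp downstream of the start. Srsf2, whose protein also acts in transcript elongation and whose peak is shared with Mfsd11, had 5.46 in Het replicate 1 and 5.02 and 7.61 in WT replicates 2 and 3. Srsf3 and Srsf10 had a peak in WT replicates 2 and 3 alone, at 6.11 and 7.11 for Srsf3 and 5.84 and 6.96 for Srsf10. None of these 4 genes had a peak in a Homo library.

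Srsf1, the founding SR gene and a known MYC target in human cells, was not bound by the rule but only just missed it. In WT replicate 3 its summit lay 1001 bp inside the end of the span, 1 bp beyond the limit, and 127 bp downstream of the annotated start. The same summit was listed in 4 libraries, at folds of 8.14 and 9.17 in Het replicates 1 and 2 and 11.3 and 8.21 in WT replicates 2 and 3, and in no Homo library. Srsf4, Srsf5, Srsf9, Srsf11 and Srsf12 had no peak either, the nearest summit being 7182 bp from Srsf9.

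Among the snRNP and U2 genes, 10 of 23 were bound (background 14.9%) and 6 in at least 2 libraries (background 8.03%). Of these 6, 5 were Snrp genes (of 12) and 1 an Sf3 or U2af gene (of 11). Snrpd1, which encodes the Sm protein D1 (chromosome 18, 10617796 to 10628230), had folds of 4.2 and 4.79 in Homo replicates 1 and 3, 5.40, 12.6 and 5.35 in the Het libraries, and 8.10 and 9.47 in WT replicates 2 and 3. Both Homo values were below all Het and WT values. Snrpa1, the U2 A′ protein, had 6.11 and 10.3 in Het replicates 1 and 2 and 6.19 and 8.50 in WT replicates 2 and 3. Snrpf, the Sm protein F, had 5.46 and 7.03 in the same Het libraries and 5.60 and 7.61 in the same WT libraries.

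Snrpb, which encodes the Sm proteins B and B′, had 8.60 and 7.94 in Het replicates 1 and 2 and 6.77 in WT replicate 3. Snrpa, the U1 A protein, whose peak is shared with BC024978, had 4.82 and 8.97 in WT replicates 2 and 3 alone. Sf3b3, a large subunit of SF3B whose peak is shared with Cog4, had 4.03 in Het replicate 1 and 7.97 and 5.56 in WT replicates 2 and 3. U2af1, U2af2 (shared with Epn1) and Sf3a2 (shared with Plekhj1) had a peak at an end in WT replicate 3 alone, at 6.72, 6.90 and 5.67. U2af2 also had a summit inside the gene, over 1 kb from both ends, with folds of 6.53 in Het replicate 2 and 4.40 in WT replicate 3. Sf3b2 had one in Het replicate 2 alone (5.97), at the far end of the gene, where it meets Pacs1. Sf3b1, the SF3B subunit that contacts the branch site, had its nearest summit 60125 bp away. Snrpe, Snrpg, Snrpd2, Snrpd3, Snrpb2, Snrpc, Snrpn, Sf3a1, Sf3a3, Sf3b4, Sf3b5 and Sf3b6 had no peak at an end either, so that 3 of the 7 genes of Sm ring proteins (Snrpb, Snrpd1 and Snrpf) were bound.

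Within each library, the shares of hnRNP, SR and snRNP genes bound overlapped within their counting error. In Homo replicate 3, 12.5% of the hnRNP genes (exact Clopper-Pearson 95% interval 2.66% to 32.4%), 9.09% of the SR genes (0.230% to 41.3%) and 4.35% of the snRNP and U2 genes (0.110% to 21.9%) were bound. In Het replicate 1 the shares were 20.8%, 27.3% and 21.7%. In WT replicate 3 they were 50% (29.1% to 70.9%), 45.5% (16.7% to 76.6%) and 39.1% (19.7% to 61.5%). The background in these libraries, in the same order, was 0.918%, 5.58% and 14.1%. The intervals, which cover counting error only, overlapped between the 3 groups in all 9 libraries. The fold had a median of 7.03 over 35 hnRNP peaks, 6.96 over 17 SR peaks and 6.72 over 27 snRNP and U2 peaks.

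Ranked by fold within each list, the peaks of the splicing genes were of middling height. Their median percentile, where 100 is the highest peak of a list, was 49.7 over 79 peaks, against 47.0 for the peaks of all bound genes. It was 16.1 and 12.7 in Homo replicates 1 and 3 (3 and 5 peaks), 24.1, 73.0 and 38.6 in the Het libraries, and 37.6 and 56.1 in WT replicates 2 and 3. For all bound genes the medians in the same order of libraries were 50.4, 37.3, 44.1, 47.5, 45.2, 45.9 and 49.3. By group, over all libraries, the median percentile was 54.2 for hnRNP, 52.7 for SR and 46.7 for snRNP and U2 genes. Among the 51 highest peaks of each list, the length of the shortest one, there was 1 splicing gene in Homo (Hnrnpa1, replicate 1), 0 in Het and 1 in WT (Pcbp1, replicate 3). Few genes of any kind were bound by these peaks, 35, 12 and 11 in Homo, 15, 27 and 12 in Het, and 3, 5 and 25 in WT.

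**Figure D2:**
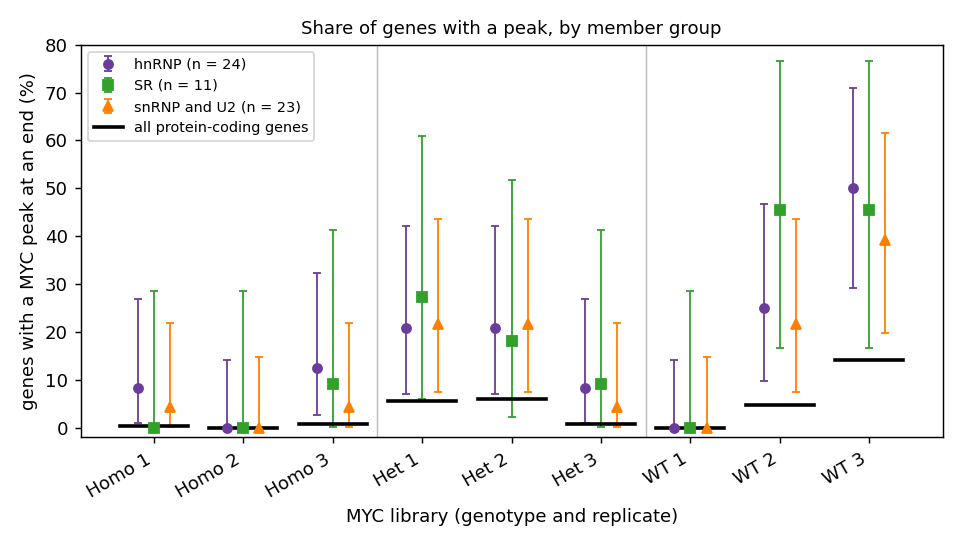
Share of hnRNP, SR, and snRNP and U2 genes with a MYC peak at an end (symbols, with exact 95% intervals) in each library, beside the share of all protein-coding genes (black bars). The intervals of the 3 groups overlap in all 9 libraries, and no splicing gene is bound in Homo replicate 2 or WT replicate 1.

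Between genotypes, the number of bound splicing genes was 3, 0 and 5 in Homo, 13, 12 and 4 in Het, and 0, 16 and 26 in WT, in replicate order. The background share of all genes in the same libraries was 0.324%, 0.0548% and 0.918% in Homo, 5.58%, 6.14% and 0.854% in Het, and 0.0731%, 4.86% and 14.1% in WT. The means were 2.67 ± 2.52 in Homo, 9.67 ± 4.93 in Het and 14.0 ± 13.1 in WT (SD, n = 3 each). The difference was -11.3 genes for Homo minus WT, -7 for Homo minus Het and -4.33 for Het minus WT. In any of the 3 libraries 5 splicing genes were bound in Homo (background 1.03%), 15 in Het (background 7.85%) and 26 in WT (background 14.3%). In at least 2 of the 3 libraries it was 3 in Homo (background 0.238%), 10 in Het (background 3.98%) and 16 in WT (background 4.66%). Neither Homo and WT nor Homo and Het were separated, as WT replicate 1 had fewer bound genes than Homo replicates 1 and 3, and Het replicate 3 fewer than Homo replicate 3. Het minus WT turned to 1.67 without WT replicate 3, and Homo minus WT was -5.33 without it and -18.3 without WT replicate 1. Het minus WT was -11.3 without WT replicate 1 and -1.5 without Het replicate 3. No p is given for these counts, since the genes were chosen with earlier results of these data known.

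The lower numbers in Homo went along with shorter lists. As a share of all genes with a peak, splicing genes made up 4.23% (exact 95% interval 0.880% to 11.9%), 0% and 2.49% (0.813% to 5.71%) in Homo, 1.06%, 0.894% and 2.14% in Het, and 0%, 1.51% and 0.841% in WT. These shares overlap between the genotypes, at means of 2.24 ± 2.12% in Homo, 1.37 ± 0.675% in Het and 0.782 ± 0.754% in WT (SD, n = 3 each). The Homo mean was 1.24% without Homo replicate 1, below that of Het, and 3.36% without Homo replicate 2. The WT mean was 0.421% without WT replicate 2 and 1.17% without WT replicate 1. With the reads of each peak scaled down to the depth of the shallowest input and 1 limit for all (−log10 p of at least 10), 2, 0 and 1 splicing genes were bound in Homo, 6, 10 and 3 in Het, and 0, 3 and 13 in WT. The background on this scale was 0.251%, 0.0548% and 0.649% in Homo, 2.67%, 4.45% and 0.594% in Het, and 0.0457%, 1.24% and 5.55% in WT. Het minus WT then turned to 1, and Homo minus WT was -4.33. In at least 2 libraries 10 splicing genes were bound on this scale (background 3.83%).

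The design could not separate the genotypes at a single gene. In an exact two-sided permutation test of each of the 21887 genes over 3 against 3 libraries, the smallest possible p is 0.1, so that 0 genes were under 0.05. It is reached only by a gene in all 3 libraries of 1 genotype and none of the other. This held for 0 splicing genes in all 3 pairs of genotypes in either direction (background 0%, except 0.297% for no Homo and 3 Het libraries). With no splicing gene bound in Homo replicate 2 or WT replicate 1, none could be in all 3 libraries of Homo or of WT. Without WT replicate 1, 11 splicing genes were in no Homo and every WT library (background 3.7%) and 4 in no Het and every WT library (background 0.649%). In no Homo and every Het library there were 5 without Het replicate 3 (background 2.99%) and 2 without Homo replicate 3 (background 0.539%). By the looser rule of 0 of 3 Homo and at least 2 of 3 WT libraries, 11 splicing genes qualified (background 3.7%). By 0 of 3 Homo and at least 2 of 3 Het libraries 5 did (background 3.04%), namely Hnrnpa3, Srsf6, Snrpa1, Snrpf and Snrpb, and by 0 of 3 Het and at least 2 of 3 WT libraries 4 (background 0.649%), namely Hnrnpab, Srsf3, Srsf10 and Snrpa. The reverse counts were 0 in all 3 pairs (background 0%, 0% and 0.0868%).

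All splicing genes bound in Homo were also bound in Het and WT. This was not particular to them, as 223 of the 225 genes of any kind bound in a Homo library were bound in WT replicate 3. The share of these 225 genes bound in Het was not computed. Of the 26 splicing genes bound in WT replicate 3, 5 (19.2%) were bound in any Homo library and 14 (53.8%) in any Het library. Over all 3090 genes bound in WT replicate 3 the shares were 7.22% and 50.9%. The 5 genes were Pcbp1, Srsf7, Hnrnpa1, Snrpd1 and Ptbp1, with folds of 8.12 to 29.1 (median 9.47) in WT replicate 3, against 4.77 to 13.4 (median 6.96) for the other 21.

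The fold divides by a local background that rests on few input reads, so the MYC reads at the summit were also solved from the deposited values and divided by the mean coverage of their library, itself an estimate from the lowest background in each list. At Pcbp1 there were 69 and 116 reads in Homo replicates 1 and 3, 148, 102 and 60 in Het, and 104 and 133 in WT replicates 2 and 3. Over the library mean these were 39.5 and 47.4 times in Homo, 50, 65.7 and 36.4 times in Het, and 41.4 and 62.0 times in WT, so that both Homo values lay within the range of Het. At Srsf7 the values over the mean were 33.1 times in Homo replicate 3, 34.5, 47.1 and 30.3 times in Het, and 25.5 and 36.4 times in WT replicates 2 and 3. The Homo library with the lowest fold at Srsf7 thus lay amid the others by reads. The local background there was 5 input reads in Homo replicate 3, 1.56, 6 and 2 in the Het libraries, and 1.65 and 1.94 in WT replicates 2 and 3. Whether the background accounts for the folds was not tested.

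At Ptbp1 the reads over the mean were 28.6 times in Homo replicate 3, 32.4, 42.5 and 34.0 times in Het, and 25.9 and 28.9 times in WT replicates 2 and 3, so that Homo was below Het and within WT. At Hnrnpa1 they were 28.1 and 28.2 times in Homo, 33.1 and 45.8 times in Het, and 17.5 and 28.4 times in WT. The 17.5 belongs to the upstream summit of WT replicate 2, whose downstream summit stood 26.3 times over the mean. At Snrpd1 they were 26.9 and 26.6 times in Homo, 30.7, 33.5 and 22.4 times in Het, and 20.3 and 25.2 times in WT, so that both Homo values were above both WT values, whereas by fold they were below. These values exist only where a peak was listed, and a list holds only what passed its threshold. The lowest listed peak stood 14.9, 19.5 and 14.7 times over the mean in the Homo lists, 10.8, 12.2 and 12.1 times in Het, and 14.3, 9.16 and 7.92 times in WT. Of the 21 splicing genes in WT replicate 3 but in no Homo list, 4 (Hnrnpd, Hnrnpa0, Pcbp2 and Hnrnpm) stood lower in WT replicate 3 than any peak in the Homo lists, and the 21 ranged from 10.7 to 33.1 times (median 21.0). The same count over all genes was not computed. The lowest listed peak is not a detection limit at each site, so the values do not say which of the 21 could have been listed in Homo.

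**Figure D3:**
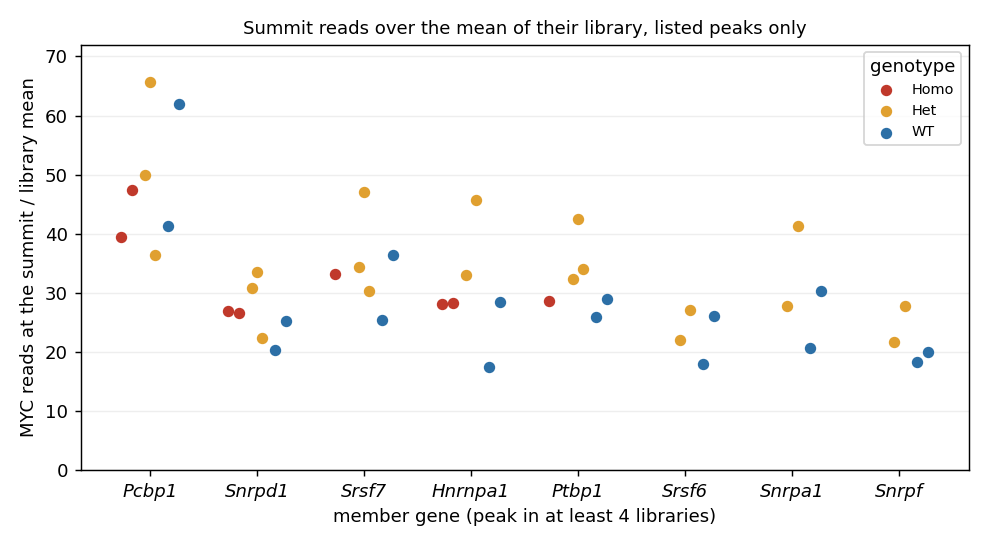
MYC reads at the summit divided by the mean coverage of the same library (vertical axis), for the 8 splicing genes with a peak in at least 4 libraries. Each point is a library with a listed peak, Homo, Het and WT from left to right at each gene. At Pcbp1 the Homo values, 39.5 and 47.4, lie within the Het range of 36.4 to 65.7.

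Only summits within 1 kb of a gene end were counted, which largely fixes how near they lie to a start. For 24 bound genes a start was annotated with its strand, and of their 68 peaks 67 had the summit within 1000 bp of a start, at a median distance of 300 bp. The exception was Sf3b2. For the 5992 peaks of all bound genes with a start, 91.6% were within 1000 bp, at a median distance of 164 bp. Of the 68 summits at splicing genes 31 lay upstream of the start and 37 downstream.

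**Figure D4:**
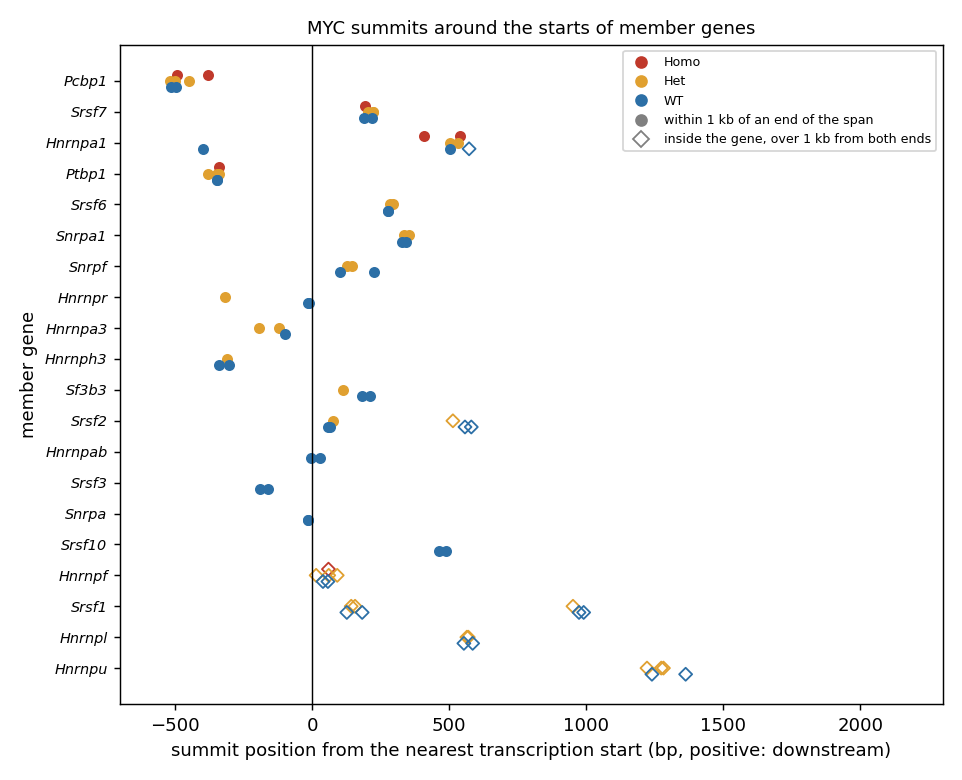
Summits at splicing genes by distance from the nearest annotated transcription start (horizontal axis, bp), coloured by genotype, for genes bound in at least 2 libraries and for 4 genes with summits inside the gene. Filled circles lie within 1 kb of an end of the gene span (highest peak per library) and open diamonds deeper inside. Snrpd1 and Snrpb are not drawn. Summits recur within 39 bp at Ptbp1 and 35 bp at Srsf7 in all 3 genotypes, but span 939 bp at Hnrnpa1, and those of Hnrnpf lie 15 to 92 bp after an internal start.

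Of 91 other splicing genes (helicases, Prp and Lsm proteins, SR kinases and further RNA-binding proteins), 20 (22.0%) were bound in at least 2 libraries, against 8.03% of all genes, and 1 was bound in a Homo library, a share near the 1.03% of all genes. That gene was Lsm2, of the U6 snRNP, with folds of 5.86 to 9.81 in 4 libraries. Ddx39b and Dhx15 (RNA helicases of the spliceosome), Srpk1 (a kinase of SR proteins) and Cherp were bound in 2 Het and 2 WT libraries each, with folds from 3.90 to 11.3. Of 18 genes for snRNP assembly, 5 (27.8%) were bound in at least 2 libraries. They were led by Gemin6 with 6 libraries, whose peak is the one counted for Srsf7. Clns1a, which delivers Sm proteins to the methylosome, and Coil, the scaffold of Cajal bodies, were bound in 3 libraries each, at folds of 5.46 to 9.1. These lists were written with earlier results of these data known.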

How the data were processed

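Peaks of 9 MYC libraries were used. Per the submitters' processing notes, reads were processed with MACS2 2.0.10.20131216, Bowtie2 2.2.3, HOMER and Picard, with the mm10 build. No label or header names the peak threshold. Each deposited list gives, per peak, the authors' fold over background (a ratio), −log10 p and −log10 q, a score that is the whole part of 10 times −log10 q, and the summit offset. The members and lists were chosen with earlier results of these data known.

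Summits were matched to gene ends (1 kb; RefSeq GRCm38.p6) with Python 3.11.15, pandas 2.3.3 and SciPy 1.17.1. Percentiles are by fold within a list. Fold and −log10 p were solved together for whole MYC reads and local background, which gave 1 solution for 99.8% of 10376 peaks (tolerance 0.0004 scaled reads) and for all 79 at members. The solver and the matching were tested on simulated data. A library's input depth is its lowest background per bp, with the shortest peak as the fragment length, and its mean MYC coverage follows from the solved ratio of MYC to input reads.

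Genotypes were compared by an exact permutation test per gene, with no test over members. The rule named members bound in at least 4 libraries, in WT replicate 1 or Homo replicate 2, or in 3 of 3 libraries of 1 genotype and 0 of 3 of another, up to 6 genes per other list, and Hnrnpa1, Hnrnpa2b1, Ptbp1, Pcbp1, Srsf1, Srsf3, Sf3b1, U2af1 and U2af2; the other members are named for completeness. Of the promoters shown, Pcbp1, Ptbp1 and Hnrnpf were chosen after their values were seen, in place of Hnrnpab, Srsf3 and Pcbp2. Alternatives covered stricter peak limits (−log10 q or fold of at least 5, −log10 p of at least 10), windows of 250 bp and 5 kb, peak overlap of at least 1 bp, transcription starts, thinning, list length, each library left out, and the replicate number as a block. Intervals and limits from counts cover counting error only.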

Additional observations from a re-analysis of the deposited data

How the results depend on the processing

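Over the alternatives, 397 of 433 values stayed within the spread between libraries or within 1.5 times of the main count. Part of these values could not move. A genotype's mean stays the same when a library of another genotype is left out. No splicing gene could be in every Homo library while Homo replicate 2, with none bound, was used. The tally therefore overstates how stable the results are. With a 250 bp window 10 splicing genes were bound in at least 2 libraries (1 SR gene, 1 with CACGTG; 5% of all genes) and 12 in at least 1, Het averaged 3.67 and Homo minus Het was -3. After thinning with −log10 p of at least 10 there were 10 (4 hnRNP, 2 SR, 2 with CACGTG), at a median percentile of 74.0. At the length of the shortest list 0 genes of any group, and 0 with CACGTG, were bound in at least 2 libraries, the means were 0 in Het and 0.333 in WT, the Het share was 0%, the median percentile was 84.8, Homo minus WT was 0 and Homo minus Het 0.333. By the main rule 8 genes were bound in at least 4 libraries (background 3.03%). Among those in at least 2, 8 of the 16 with a promoter sequence had CACGTG or CACGCG. This was near the 49.1% of all genes bound in at least 2 libraries.

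Genes in no Homo and every Het library numbered 3 with −log10 q of at least 5, 1 with fold of at least 5, 1 within 5 kb, 2 with −log10 p of at least 10 and 1 after thinning. The background was not computed at these settings. Under the main rule it was 0.297%, with 0 splicing genes. Without WT replicate 1 and Homo replicate 2 together, 11 genes were in no Homo and every WT library and 4 in no Het and every WT library. Without WT replicate 1 alone the counts were the same, with backgrounds of 3.7% and 0.649%. The transcription starts counted beside the ends, chosen after seeing the data, gave 21 genes in at least 2 libraries (background 8.8%).

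Leaving out each library in turn gave 14 to 18 genes in at least 2 libraries, 6 to 7 hnRNP, 3 to 5 SR (3 without WT replicate 2 or 3) and 5 to 6 snRNP and U2 genes, and 3 to 4 with CACGTG. The mean was 1.5 to 4 in Homo, 8 to 12.5 in Het and 8 to 21 in WT. The share of bound genes was 1.24% to 3.36% in Homo, 0.979% to 1.60% in Het and 0.421% to 1.17% in WT. Homo minus WT was -18.3 to -5.33, Het minus WT -11.3 to 1.67, Homo minus Het -9.83 to -5.33, and the median percentile 36.8 to 52.7. Genes in no Homo and every WT library numbered 0 to 11 (background 3.7% at 11). In no Homo and every Het library there were 0 to 5 (background 2.99% at 5). In no Het and every WT library there were 0 to 4 (background 0.649% at 4). The causes were not tested.

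With the replicate number as a block, Homo minus WT was -11.3 ± 12.7, Het minus WT -4.33 ± 17.5 and Homo minus Het -7 ± 7 (SD over 3 same-numbered pairs), and the count of separating genes was 0. The deviations of libraries with the same number correlated at -0.276 to 0.318 over 3264 bound genes. With lists of 51 to 4291 peaks, these values cannot decide whether the numbers pair the samples, and the labels do not say. At equal input depth and p limit, Homo minus WT was -4.33.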

Other observations

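Several splicing genes carried more than 1 MYC summit near the start, and at Srsf1, Hnrnpa1 and Srsf2 the distances were alike in different libraries. At Hnrnpa3, Hnrnpdl, Pcbp1, Ptbp1 and Sf3a2 a pair was listed in 1 library only. The share of all genes with such pairs was not computed. At Srsf1 a second summit lay 952 to 991 bp downstream of the start in Het replicate 1 and WT replicates 2 and 3, 791 to 864 bp from the first, with folds of 9.61 in Het and 7.46 and 9.66 in WT. At Hnrnpa1 summits lay on both sides of the start, 905 bp apart in Het replicate 2 and 972 and 912 bp apart in WT replicates 2 and 3. The upstream summit, towards Cbx5, had folds of 7 in Het and 6.24 and 7.38 in WT, and the downstream one 11.3 in Het and 7.25 and 9.08 in WT. In WT replicate 2 the downstream summit was 1027 bp inside the gene, so that the fold given for Hnrnpa1 in that library is that of the upstream summit.

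At Srsf2 a summit 514 to 581 bp downstream of the start was listed in Het replicate 2 and WT replicates 2 and 3, at folds of 8.28 in Het and 5.15 and 8.69 in WT. In Het replicate 2 it was the only summit at Srsf2 and lay 1095 bp from the end of the span, so that library does not count as bound by the rule. At Hnrnpab pairs of summits 700 and 537 bp apart were listed in WT replicates 2 and 3. No pair of summits was listed at a splicing gene in a Homo library. Those lists held only 112, 51 and 303 peaks, with 3, 0 and 5 splicing genes bound.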
